A study of Drosophila melanogaster with 6 samples.

Results

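The genes described here encode the subunits of the proteasome, and they were measured in eye-antennal imaginal discs of Drosophila melanogaster, the larval epithelia that form the adult eye and antenna. Members are all probe sets whose annotation names exactly 1 gene with a current symbol that starts with Prosalpha, Prosbeta, or Rpn or Rpt and a digit. The rule found 41 of 13966 probe sets, standing for 39 of 10844 named genes. The gene table holds 48 such symbols, and the other 9 (Prosalpha1, Prosalpha1R, Prosbeta1, Prosbeta5R2, Rpn9, Rpn10, Rpt1, Rpt6 and Rpt6R) have no probe set with a single gene name and have no values of their own here. The annotation of 1 further probe set lists 2 of those 9 genes, and it lies outside the rule. Of the 39 genes, 26 encode constitutive subunits, 6 of 7 in the alpha ring, 6 of 7 in the beta ring, 4 of 6 base ATPases, 3 of 4 other base subunits and 7 of 8 lid subunits. The other 13 are paralogs of these subunits, marked by an R or T in the symbol.

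The proteasome is the protease that degrades proteins tagged with ubiquitin chains. Its core particle is a barrel of stacked rings, in which alpha subunits form the gate and certain beta subunits cut the substrate. The regulatory particle caps the barrel. Its base holds the ATPases that unfold substrates (Rpt) and docking subunits for ubiquitin, and its lid holds the enzyme that removes the ubiquitin chain. In the Drosophila eye, photoreceptor fate downstream of Ras relies on degradation of the repressor Tramtrack through the proteins Phyllopod, Sina and Ebi. Several of the paralogs, such as Prosalpha3T, Prosalpha4T1, Prosalpha4T2 and Prosalpha6T, are known in Drosophila from the male germ line.

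The study set 3 arrays of GMR-Gal4/UAS-RasV12 discs against 3 arrays of GMR-Gal4/+; UAS-sSpi/+ discs. RasV12 is an activated form of the GTPase Ras, and sSpi is the secreted version of Spitz, an EGF receptor ligand that acts upstream of Ras. All larvae carried the GMR-Gal4 driver, which is active behind the morphogenetic furrow, and the RNA came from whole discs, which also hold cells ahead of the furrow and the antennal part. The share of the driver's cells was not measured. Larvae grew at 25 °C to the wandering 3rd instar, and 100 discs were pooled for each array. The arrays carry the name biological replicates in their titles, and discs with the driver alone are not analysed here. The text of the sSpi samples names RasV12 once, against their title, source and genotype, and the title was followed.

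The arrays had median signals of 39.4 to 41.4, and a MAS5-type signal is a brightness with no unit. RasV12 replicate 1 stood apart in 18S ribosomal RNA, with 157 for the middle probe set against 24.7 to 30.4 on the other 5 arrays. Of 10 eye disc markers, 9 had a probe set and all 9 lay in the tested brightness range, with summed signals of 3329 to 3883 in RasV12 discs and 3195 to 3773 in sSpi discs. Of these 9, 3 passed the test: ato was higher in RasV12 discs (461 against 207) and ey and ro were lower (277 against 394 and 132 against 209). Summed signals of 4 antennal markers were 435 to 527 in RasV12 discs and 552 to 636 in sSpi discs. Of the 4, 1 passed, al, lower in RasV12 discs at a mean of 89.2 against 212. The gap between the sums was nearly all that of al, so they do not show a shift of the whole list. Summed signals of 5 glial markers were 945 to 1054 in RasV12 discs and 1439 to 1533 in sSpi discs. Of 4 tested, 1 passed, Gli, lower in RasV12 discs at a mean of 738 against 1189. Gli made up most of each sum and most of the gap between them, so the sums do not show a shift of the whole list. Those of 8 hemocyte markers were 476 to 783 in RasV12 discs and 558 to 867 in sSpi discs. Each sSpi array was high in 1 other tissue list. Fat body markers summed to 70.5 to 85.1 in RasV12 discs and to 238 on sSpi replicate 1, salivary gland markers to 144 to 191 in RasV12 discs and to 805 on sSpi replicate 2, and muscle markers to 95.8 to 124 in RasV12 discs and to 238 on sSpi replicate 3, with the other sSpi arrays at 74.5 to 79.2, 98.0 to 123 and 79.2 to 104. The part of these lists in the results was not tested. The count of proteasome probe sets called was 0 with all arrays and also with any 1 sSpi array left out. Calls over all probe sets fell from 219 to 98, 86 and 134 without sSpi replicates 1, 2 and 3. With fewer calls in all, this count cannot tell what part these lists had. Of 10 markers of the male germ line, 8 lay under the brightness limit. In such bulk samples, fewer cells of a type and less RNA per cell cannot be told apart.

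No probe set of a single proteasome subunit gene passed the test between RasV12 and sSpi discs, while the probe set annotated to 2 of the other genes passed (values among the closing observations). Of the 41 probe sets, 29 were bright enough to test, and 0 of them had an adjusted p under 0.05 (limma, Benjamini-Hochberg over 8380 probe sets), where 2.61% of all tested probe sets did, 1.30% higher and 1.31% lower in RasV12 discs. A count of 0 of 29 is close to the share of 2.61%. At an unadjusted p under 0.05 the count was 1 of 29, against 15.2% of all tested probe sets. A log2 difference of at least 0.3, a fold of 1.23, was found for 0 of the 29 and for 18.2% of all tested probe sets. Their log2 differences, RasV12 minus sSpi on the log2(signal + 16) scale, ran from -0.13 to 0.26, with a median of 0.05 against -0.01 for all 8380 probe sets. In 4 of 29 all RasV12 arrays lay above all sSpi arrays, where 10.2% of all tested probe sets did so, and in 0 of 29 all lay below, where 11.1% did so. A missed threshold does not show equal levels, but the intervals bound the differences in RNA of whole discs, not those in the driver's cells alone. In 25 of 29 the 95% interval lay within a log2 value of 0.5 either way, a fold of 1.41, against 58.8% of all tested probe sets. For the 26 constitutive genes it was 25 of 26, against 74.1% of the 1569 tested probe sets at least as bright as the dimmest of them. The intervals are not adjusted for the number of members.

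**Figure D1:**
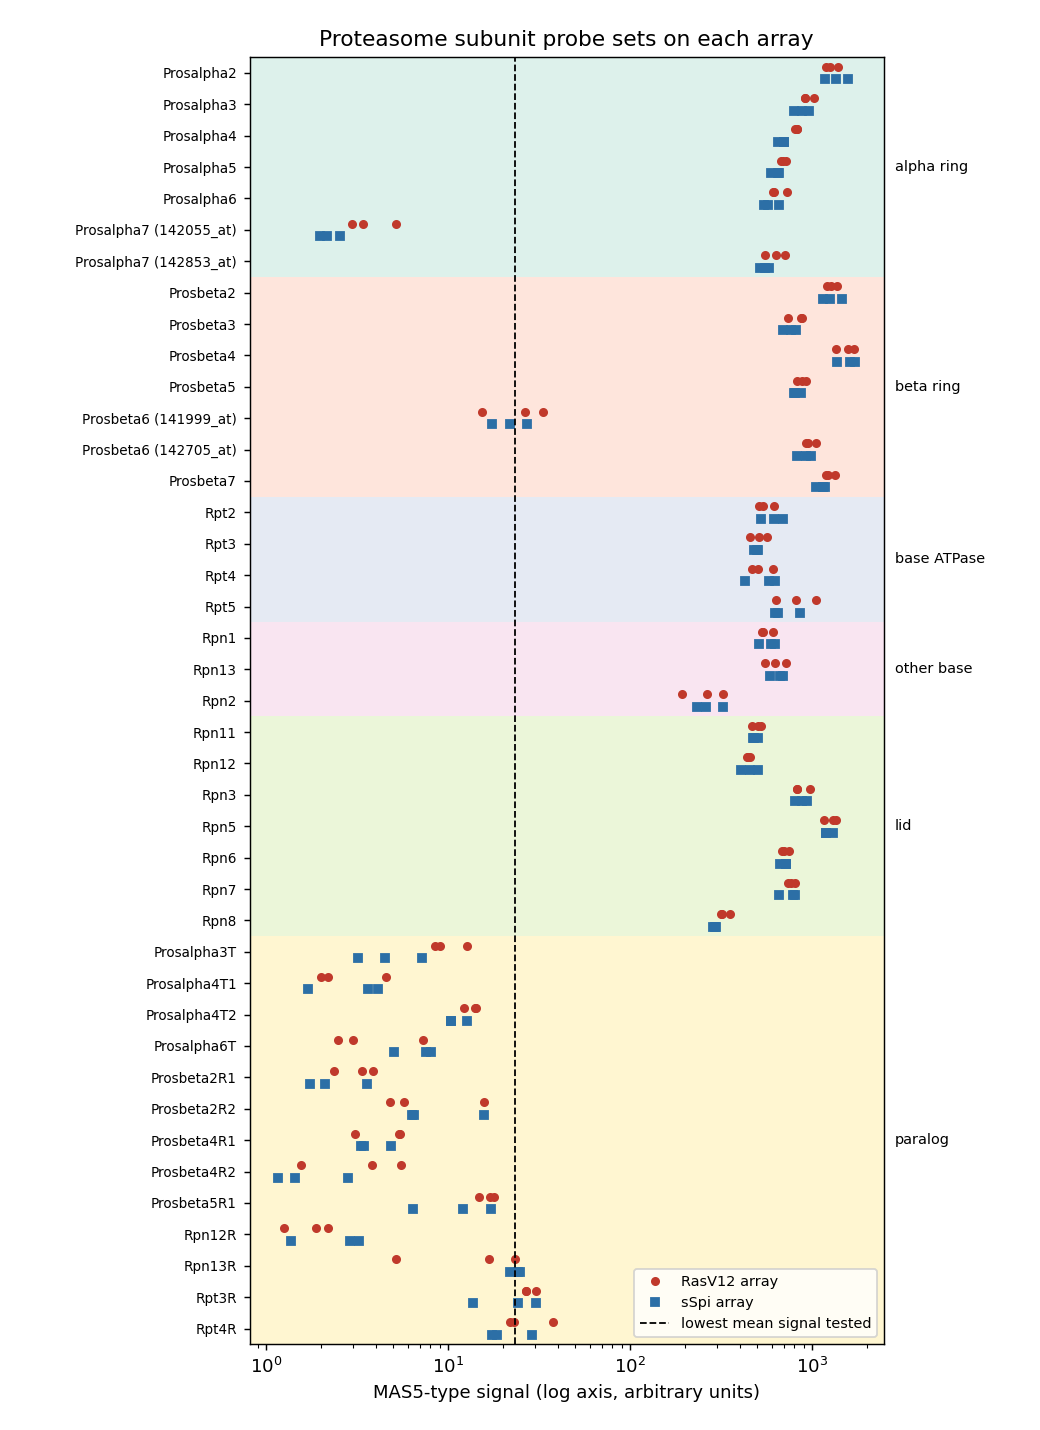
MAS5-type signal (log axis) of 41 proteasome probe sets on each array, with RasV12 arrays as circles above sSpi arrays as squares in each row and background bands by role; the dashed line is the lowest mean signal tested, 23.4. The brighter probe set of each constitutive gene lies between 194 and 1725 on every array, and the 13 paralogs lie between 1.17 and 37.7.

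The alpha ring held the largest difference among the members. Prosalpha4 measured 829, 831 and 806 on the RasV12 arrays and 698, 704 and 647 on the sSpi arrays. All RasV12 values were the higher ones, and the arrays of each genotype lay close together. The difference was a fold of 1.20 (95% interval 1.04 to 1.38), with a limma adjusted p of 0.19 over all probe sets and an unadjusted p of 0.015 (n = 3 per genotype). An exact two-sided permutation test gave 0.10, the smallest p that 3 arrays against 3 allow. With other processing or with arrays left out, its log2 difference stayed between 0.23 and 0.28 and its adjusted p between 0.15 and 0.43.

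Prosalpha5 was the other alpha ring gene whose tested groups did not overlap, at 671, 693 and 722 in RasV12 discs and 658, 648 and 598 in sSpi discs. The gap between its groups was smaller than the spread within either one, and the fold was 1.09 (0.95 to 1.26, limma adjusted p = 0.56, n = 3). Prosalpha2 had the lowest difference of the ring, at 1257, 1193 and 1386 in RasV12 discs and 1348, 1580 and 1179 in sSpi discs, a fold of 0.94 (0.78 to 1.13). Its sSpi arrays held both the highest and the lowest of the 6 values. Prosalpha3 and Prosalpha6 had folds of 1.08 and 1.10 with overlapping groups. The brighter probe set of Prosalpha7 measured 708, 632 and 552 in RasV12 discs and 550, 583 and 515 in sSpi discs, a fold of 1.14 (0.96 to 1.36). Its other probe set read 2.97 to 5.15 in RasV12 discs and 1.97 to 2.55 in sSpi discs and was too dim to test, so the gene rests on 1 probe set.

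In the beta ring, both catalytic genes with a probe set had overlapping groups. Prosbeta2 encodes the trypsin-like subunit, and a dominant temperature-sensitive allele of it is used in flies to impair the proteasome. It measured 1210, 1267 and 1378 in RasV12 discs and 1258, 1461 and 1149 in sSpi discs. The log2 difference was 0.00 ± 0.11 (SE, n = 3), and the 95% interval of the fold was 0.84 to 1.19. Prosbeta5, which encodes the chymotrypsin-like subunit, measured 931, 876 and 830 in RasV12 discs and 805, 871 and 792 in sSpi discs. Its groups overlapped by 1 array, and the fold was 1.07 (0.92 to 1.23).

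The non-catalytic beta genes lay on either side of 0. Prosbeta7 was the most positive, at 1198, 1217 and 1338 in RasV12 discs and 1181, 1145 and 1050 in sSpi discs. Its groups did not overlap, and the fold was 1.11 (0.96 to 1.29, limma adjusted p = 0.51, n = 3). Prosbeta4 was the most negative, at 1349, 1571 and 1699 in RasV12 discs and 1616, 1725 and 1374 in sSpi discs, a fold of 0.98 (0.81 to 1.18). Each genotype of Prosbeta4 had 1 low and 2 high arrays. Prosbeta3 had a fold of 1.09 (0.92 to 1.29). Prosbeta6, whose dominant temperature-sensitive allele also impairs the fly proteasome, had a fold of 1.07 (0.91 to 1.25) for the probe set that read 831 to 1052, and 1.06 (0.77 to 1.46) for a second one that read 15.3 to 33.3.

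**Figure D2:**
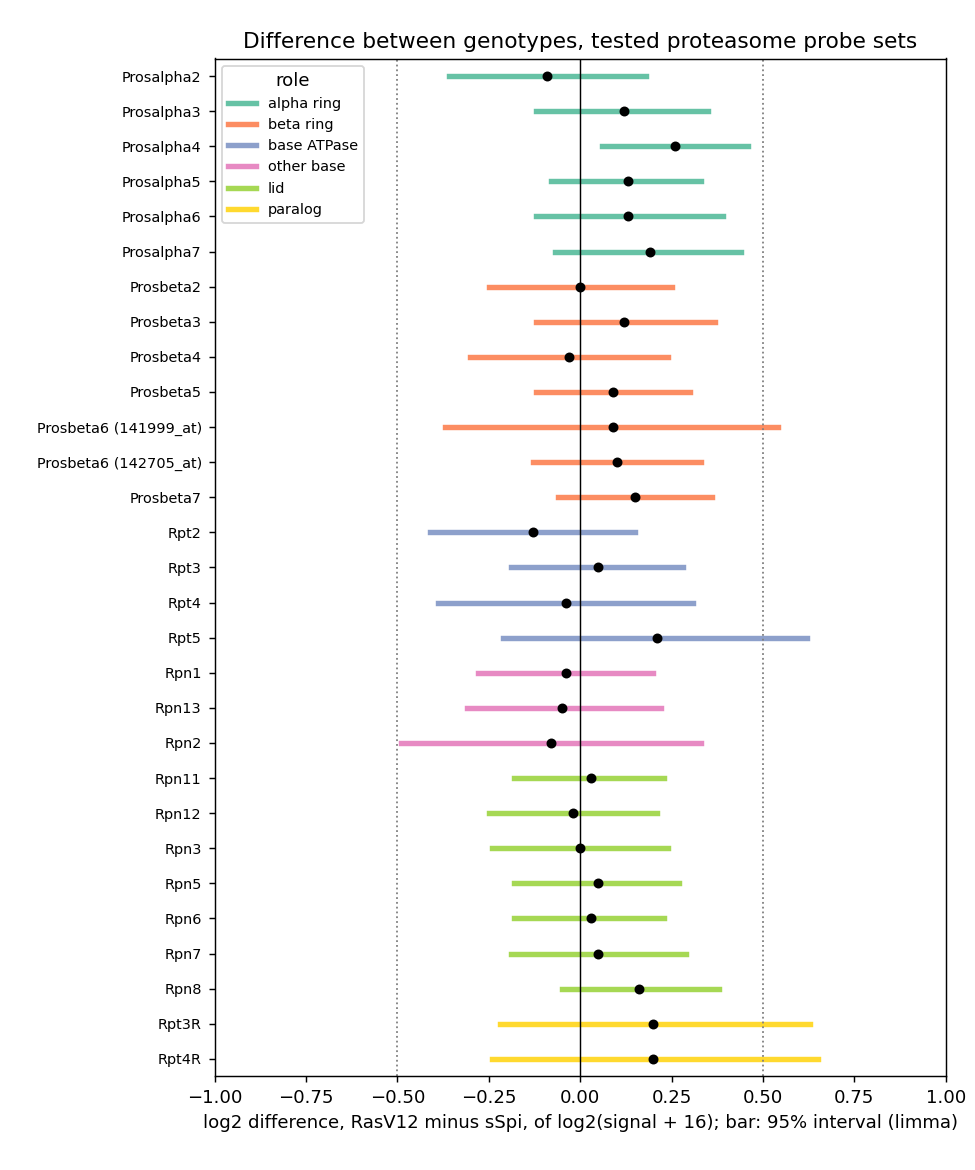
Fitted log2 difference (RasV12 minus sSpi, x axis) of the 29 tested proteasome probe sets, with bars for the 95% interval and dotted lines at -0.5 and 0.5. Prosalpha4 alone has an interval that leaves out 0, and 25 of 29 intervals stay within the dotted lines.

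Among the base ATPases, 2 of 4 log2 differences lay above 0 and 2 below. Rpt5 measured 633, 814 and 1052 in RasV12 discs and 861, 652 and 623 in sSpi discs. Its highest array read 1.69 times its lowest, the widest range of the 26 constitutive genes, and the genotypes overlapped. The log2 difference was 0.21 ± 0.18 (SE, n = 3), and it was 0.39 without RasV12 replicate 1 and 0.03 without RasV12 replicate 3, with limma adjusted p of 0.22 and 0.97. Rpt2, whose yeast counterpart opens the gate of the alpha ring, was the most negative member, at 537, 508 and 620 in RasV12 discs and 615, 691 and 527 in sSpi discs. Its groups overlapped, with a fold of 0.91 (0.75 to 1.11, limma adjusted p = 0.68). Rpt3 and Rpt4 had folds of 1.03 and 0.98.

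The other base subunits had folds just under 1. Rpn2, the scaffold that holds the ubiquitin receptor Rpn13, measured 194, 264 and 325 in RasV12 discs and 326, 260 and 233 in sSpi discs. RasV12 replicate 1, the array with the high 18S signal, was the lowest of the 6, and the genotypes overlapped. The log2 difference of Rpn2 was -0.08 ± 0.18 (SE, n = 3) with all arrays and 0.11 without RasV12 replicate 1, with limma adjusted p of 0.89 and 0.74. Rpn1, a docking site for ubiquitin and shuttle proteins, and Rpn13 both had a fold of 0.97, with intervals of 0.82 to 1.15 and 0.81 to 1.16.

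The lid genes stayed closest to 1, with 6 of 7 log2 differences between -0.02 and 0.05. Rpn8, which pairs with the deubiquitinase Rpn11, was the exception, at 319, 315 and 352 in RasV12 discs and 293, 296 and 285 in sSpi discs. Its groups did not overlap, and the fold was 1.12 (0.96 to 1.30, limma adjusted p = 0.47, n = 3). Rpn11, the lid enzyme that removes ubiquitin chains, measured 467, 522 and 503 in RasV12 discs and 476, 482 and 506 in sSpi discs, a fold of 1.02 (0.88 to 1.18). Its highest array read 1.12 times its lowest, the narrowest range of the constitutive genes. Rpn12 was the most negative lid gene, at 447, 455 and 439 in RasV12 discs and 458, 502 and 409 in sSpi discs, a fold of 0.98 (0.84 to 1.15). The scaffold genes Rpn3, Rpn5, Rpn6 and Rpn7 had log2 differences of 0.00, 0.05, 0.03 and 0.05, and their genotypes overlapped.

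Between the particles, the 12 core particle genes had a median log2 difference of 0.12 with 10 above 0, and the 14 regulatory particle genes a median of 0.01 with 8 above 0. Of all tested probe sets 48.6% lay above 0. The difference between the particles was not tested, and genes read on the same arrays are not independent of each other.

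The 26 constitutive genes tended to be high or low on the same arrays, within each genotype. On sSpi replicate 3 the signal was the lowest of the 6 arrays for 18 of 26 genes, where that array was lowest for 12.5% of all tested probe sets. On RasV12 replicate 3 it was the highest for 12 of 26, where that array was highest for 15.4% of all tested probe sets. Averaged over the 26 genes, the log2 deviation from each gene's mean was -0.05, 0.01 and 0.12 on RasV12 replicates 1 to 3 and 0.01, 0.05 and -0.14 on sSpi replicates 1 to 3. The genotypes overlapped, and their means differed by 0.05, less than the SD within RasV12 of 0.09 or within sSpi of 0.10. All 8380 probe sets together deviated by -0.01 to 0.01 on every array.

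**Figure D3:**
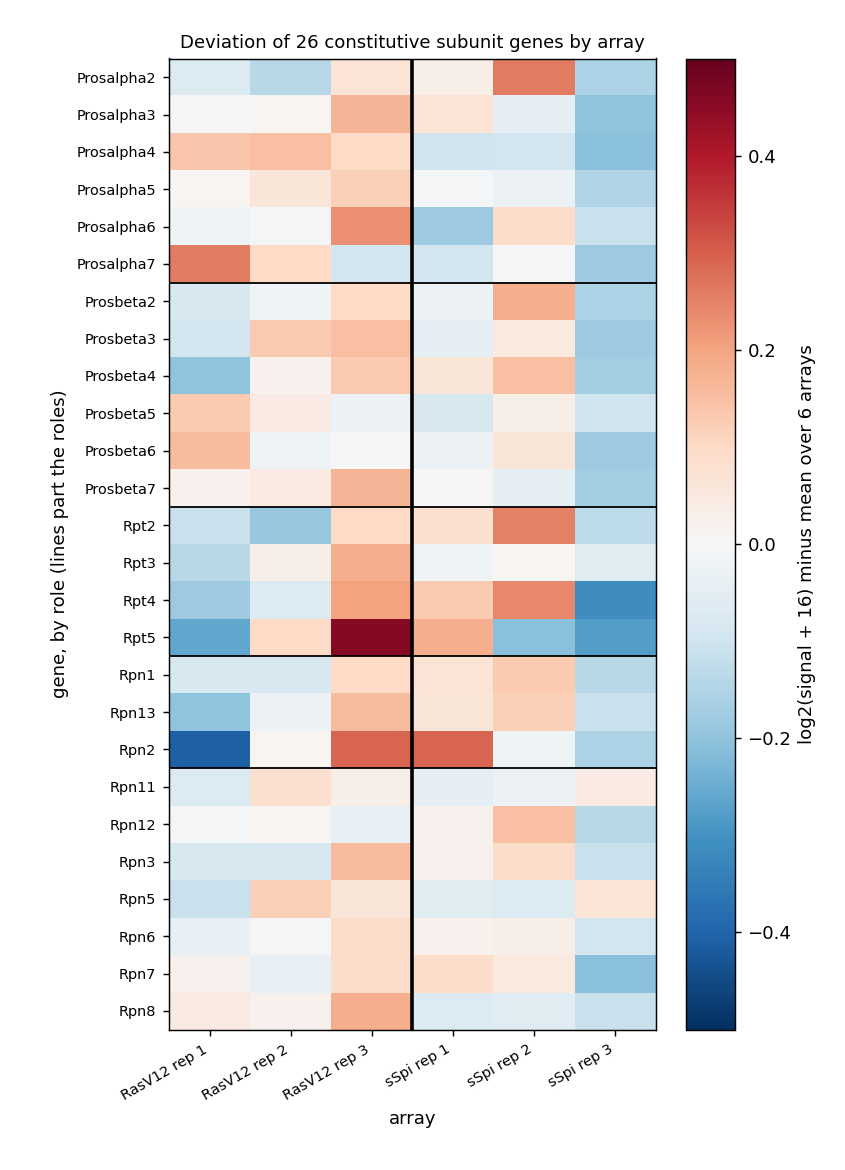
Log2(signal + 16) of 26 constitutive subunit genes (rows, by role) on 6 arrays (columns, RasV12 left of the vertical line), as deviation from each gene's mean over the arrays. The column of sSpi replicate 3 is below the mean for 24 of 26 genes, and that of RasV12 replicate 3 is above it for 23 of 26.

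This array pattern spanned more in the averages of the base genes, which rest on 4 and 3 genes, than in those of the rings or the lid. The 4 ATPase genes averaged -0.17, -0.03 and 0.23 on RasV12 replicates 1 to 3 and 0.09, 0.07 and -0.20 on sSpi replicates 1 to 3. The 3 other base genes averaged -0.23, -0.03 and 0.18 in RasV12 discs and 0.14, 0.08 and -0.14 in sSpi discs. Each genotype therefore had a high and a low array for the base, while the genotype means differed by 0.02 and -0.05. The lid genes spanned less, from -0.03 to 0.08 in RasV12 discs and from -0.08 to 0.02 in sSpi discs. Single base genes differed in span, and the widest were Rpt5, at -0.28 to 0.46 over the arrays, and Rpn2, at -0.41 to 0.29. The other base genes were narrower, Rpt4 at -0.31 to 0.24, Rpt3 at -0.14 to 0.18 and Rpn1 at -0.14 to 0.13 among them. The part of RNA quality or of the array with high 18S signal in this pattern was not tested. Without RasV12 replicate 1 the median difference of the members was 0.07, without sSpi replicate 3 it was 0.03, and without RasV12 replicate 3 it was 0.02.

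**Figure D4:**
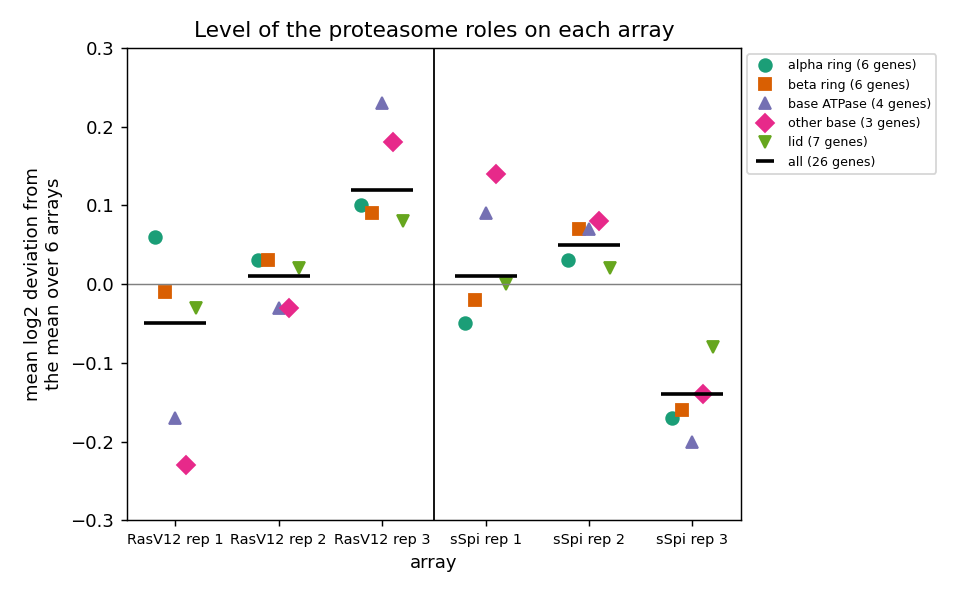
Mean log2 deviation from the mean over 6 arrays (y axis) for each proteasome role on each array, with RasV12 arrays left of sSpi arrays and a black bar for all 26 genes. The base ATPases range from -0.17 to 0.23 within RasV12 and from -0.20 to 0.09 within sSpi.

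The spread of the constitutive genes was set beside that of other probe sets of their brightness. Their median SD within a genotype was 0.122 on the log2 scale, against 0.136 for the 1569 tested probe sets with a mean signal at least that of Rpn2, the dimmest of the 26 at 267. The median ratio of the highest to the lowest array was 1.27 for the 26 genes and 1.34 for those 1569. Their median absolute difference between genotypes was 0.0829, against 0.125. Of the 26 genes 0 passed the test and 0 reached an absolute log2 difference of 0.3, against 3.89% and 15.6% of the 1569.

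The paralogs were dim on every array. Of 13, 11 lay under the limit for testing, with signals of 1.17 to 24.8, and Rpt3R and Rpt4R passed it. Rpt3R measured 26.7, 26.9 and 30.6 in RasV12 discs and 24.3, 30.3 and 13.8 in sSpi discs, a fold of 1.15 (0.86 to 1.54). Rpt4R measured 37.7, 23.0 and 21.9 in RasV12 discs and 29.0, 17.4 and 18.5 in sSpi discs, a fold of 1.15 (0.85 to 1.57). Both had overlapping groups, and neither interval excludes a difference of 1.41-fold. Of the untested paralogs, Prosalpha3T read 9.02, 12.7 and 8.50 in RasV12 discs and 3.19, 7.18 and 4.53 in sSpi discs without overlap. Rpn13R read 5.20, 16.7 and 23.4 in RasV12 discs and 21.8, 24.3 and 24.8 in sSpi discs. No fold is given for these dim probe sets. Among markers of the male germ line bam, can, aly, sa, dj, nht, ocn and betaTub85D read 0.422 to 8.03, whereas Mst87F and Mst84Da read 22.8 to 48.0.

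Genes that act with the proteasome were read in the same fit. In 8 lists of the ubiquitin pathway and of comparable complexes, 0 of 80 tested genes passed (limma adjusted p under 0.05), against 2.61% of all tested probe sets, while 16 had an unadjusted p under 0.05, against 15.2% of all tested probe sets. With 1 array left out the count reached 1 (rdx without RasV12 replicate 1, POSH without RasV12 replicate 3, not without sSpi replicate 1). A count of 0 of 80 is close to the share of 2.61%, and a difference from that share was not tested. Of the 80, 43 lay above 0 and 37 below, and the median log2 difference was 0.02.

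Among 9 assembly factors and regulators, 8 lay above 0, with a median of 0.08. Pomp, the chaperone that matures the core particle, measured 569 ± 6.94 in RasV12 discs and 480 ± 28.7 in sSpi discs (SD, n = 3), a fold of 1.18 (1.02 to 1.36, limma adjusted p = 0.25). Sem1, a small subunit bound to the lid, measured 727 ± 59.9 and 601 ± 44.4 in the same order, a fold of 1.20 (1.02 to 1.42, limma adjusted p = 0.25). The groups of both did not overlap, and neither passed. The proteasome-bound deubiquitinase genes Usp14 and Uch-L5 had log2 differences of 0.00 and 0.04. In 9 genes of the Cnc pathway, which controls proteasome genes in flies and mammals, the median was 0.10. Keap1, the inhibitor of Cnc, measured 74.1 ± 4.36 in RasV12 discs and 48.0 ± 6.73 in sSpi discs, a fold of 1.41 (1.16 to 1.73, limma adjusted p = 0.091). The gene cnc itself had a fold of 1.26 (1.01 to 1.58, limma adjusted p = 0.30), and its groups overlapped. Of the 9 genes, 7 lay above 0 and 2 below, GstD1 with a fold of 0.86 and rngo with 0.95.

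Upstream of the proteasome, 12 of 21 listed genes had a probe set, all of them ubiquitin or E2-type genes with no E1 gene among them. Of the 12, 10 lay below 0, with a median of -0.10, and the smallest p belonged to morgue, a ubiquitin-conjugating enzyme variant that acts in apoptosis. It measured 133 ± 3.44 in RasV12 discs and 169 ± 2.93 in sSpi discs (SD, n = 3), a fold of 0.80 (limma adjusted p = 0.15). Ubc6 had a fold of 0.83 (0.66 to 1.06). Of 8 shuttle and unfoldase genes, casp, which encodes a ubiquitin-binding inhibitor of immune signalling, was closest to the threshold, at 373 ± 4.75 in RasV12 discs and 285 ± 6.34 in sSpi discs, a fold of 1.29 (1.12 to 1.49, limma adjusted p = 0.074). TER94, the unfoldase that feeds substrates to the proteasome, had a fold of 1.12 (0.97 to 1.28).

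Of 16 ubiquitin ligase genes, POSH, a ligase of the JNK pathway, measured 167 ± 41.2 in RasV12 discs and 253 ± 14.4 in sSpi discs (SD, n = 3), a fold of 0.67 (limma adjusted p = 0.095). Cbl, a ligase for the EGF receptor, had a fold of 0.85 (0.74 to 0.99, limma adjusted p = 0.29). The genes that direct Tramtrack to the proteasome, named after their values were seen, had folds of 1.22 for sina, 1.08 for phyl and 1.08 for ebi, with 95% intervals of 0.99 to 1.50, 0.92 to 1.28 and 0.89 to 1.30. The list medians were -0.00 for ligases, 0.04 for 10 deubiquitinases, 0.02 for 9 genes of the COP9 signalosome, a complex built like the lid, and -0.07 for 8 genes of the CCT chaperonin. Among these, not, the deubiquitinase of the SAGA complex, had a fold of 1.63 (1.18 to 2.24, limma adjusted p = 0.13), and Usp47 a fold of 0.82 (limma adjusted p = 0.24). CSN5, the enzyme of the signalosome, had a fold of 1.26 and its partner alien one of 1.06 (limma adjusted p of 0.21 and 0.74). CCT4 and CCT1 had folds of 0.83 and 0.81, each with a limma adjusted p of 0.24.

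**Figure D5:**
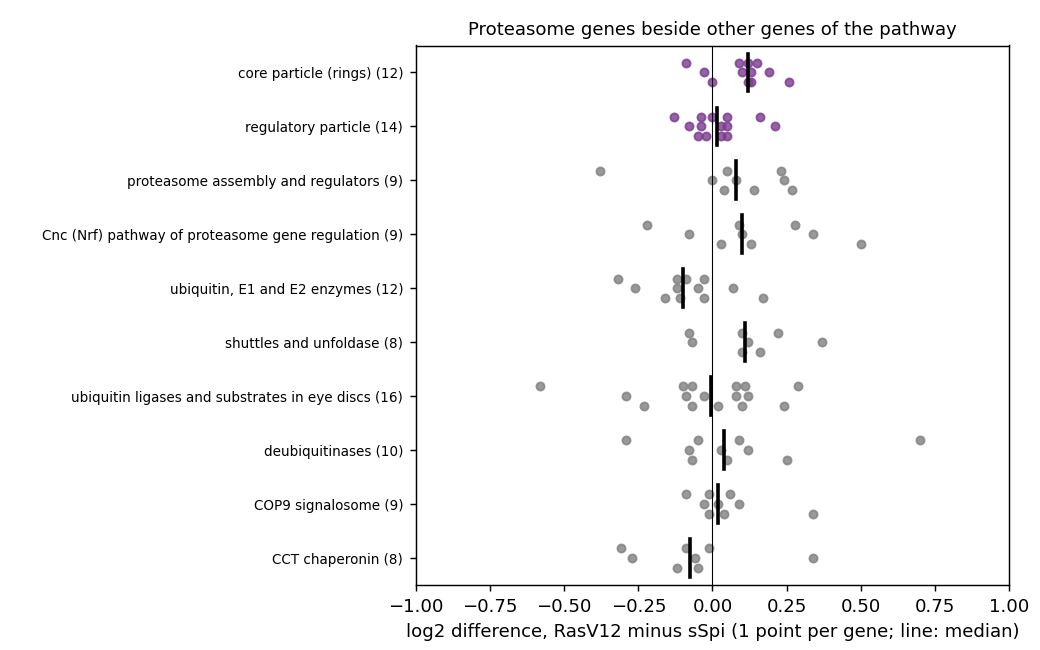
Log2 difference (RasV12 minus sSpi, x axis) of each tested gene in the core particle, the regulatory particle and 8 lists of other genes, 1 point per gene with the median as a line. All proteasome points lie between -0.13 and 0.26, and the other lists reach from -0.58 to 0.70.

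Ribosomal protein genes are another large set of constitutive complexes. Of 92 listed genes of the cytoplasmic ribosome, 37 had a probe set and 32 were tested. Among these, 0 of 32 were called, with a median of -0.10, 28 below 0 and 1 with an unadjusted p under 0.05 (limma). RpL40 and RpS27A are in this list and in the ubiquitin list. For the mitochondrial ribosome 0 of 64 were called, with a median of -0.03, 38 below 0 and 5 with an unadjusted p under 0.05 (limma), and 2 were called without RasV12 replicate 1. Of all tested probe sets 2.61% were called, 15.2% had an unadjusted p under 0.05 and 48.6% lay above 0. The smallest p values were those of RpL28 and RpS18, with folds of 0.84 and 0.86, and of mRpS29 and mRpL33, with folds of 0.68 and 1.41. On the arrays the cytoplasmic set was highest on sSpi replicate 2, at 0.18, and lowest on RasV12 replicate 2, at -0.16, and the mitochondrial set was highest on RasV12 replicate 1, at 0.18, and lowest on RasV12 replicate 3, at -0.11. The proteasome genes were highest on RasV12 replicate 3, at 0.12, and lowest on sSpi replicate 3, at -0.14. A difference between these sets and the proteasome genes was not tested.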

How the data were processed

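RNA was hybridised to 6 single-colour Affymetrix arrays, each from 5 ug of total RNA per the labels' protocols. The authors deposited linear intensities, a single signal for every probe set. The submitters' processing notes list MAS5 as the tool, without a version. Every array's trimmed mean (2% off either side) is 100 in the deposited table. No genome build is given in the sources used here, so no coordinates are printed. Of 13966 probe sets without the 44 controls, 12443 have 1 gene symbol, 327 several and 1196 none; current symbols came from the gene table of RefSeq.

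Signals were transformed to log2(signal + 16), so folds of dim genes are understated. The brightest 60% by mean, 8380 probe sets with means of at least 23.4, were fitted with limma 3.58.1 (eBayes with trend, R 4.3.3), RasV12 minus sSpi, two-sided, and adjusted over these 8380 by Benjamini-Hochberg. In the other lists and in values over the 26 constitutive genes, the brightest probe set stood for a gene with several. Values over the 29 tested members took every tested probe set. The number of arrays limits the precision. The fit was tested on simulated data with 200 changed probe sets among 8380. The changed ones were drawn at random over all brightnesses, and the noise was independent between probe sets. It recovered 34.3% of log2 differences of 0.5, 94.0% of those of 1 and 100.0% of those of 2. Differences of 0.5 were thus missed more often than found in that simulation. The rates cover probe sets of all brightnesses and were not obtained for the proteasome genes, which moved together on some arrays. Alternatives were other pseudocounts (1, 64), filters, scalings, no trend, a replicate block, single arrays left out and 1 probe set per gene. Members and lists were chosen with earlier results of these data known. The text gives values for the catalytic beta genes, the most positive and most negative member of each role, members with more than 1 probe set and, per list, the 2 genes with the smallest p. Others were added after the values were seen. Figures were drawn with matplotlib 3.10.9.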

Additional observations from a re-analysis of the deposited data

How the results depend on the processing

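The count of proteasome probe sets past the threshold was 0 under all 16 alternatives, and their median log2 difference stayed between 0.02 and 0.13. The value of 0.13 came without both RasV12 replicate 1 and sSpi replicate 2, an alternative chosen after seeing the data. Of 432 member values under these alternatives, 0 were called, the lowest adjusted p was 0.15, 9 moved by more than the fit's standard error and 26 changed sign, all uncalled. The count over all probe sets was 219; it was 138 without the signal filter and ranged from 86 to 369 with 1 array left out (369 and 106 without RasV12 replicates 1 and 2, 98, 86 and 134 without sSpi replicates 1, 2 and 3). In the 8 other lists the count of 0 ranged from 0 to 1 with 1 array left out: without RasV12 replicate 1 the call was rdx, without RasV12 replicate 3 POSH, and without sSpi replicate 1 not. With the replicate number as a block, 159 probe sets passed and 0 members, with a median of 0.05. Deviations of same-numbered arrays had r = -0.11, -0.04 and -0.14, and no pairing was assumed. Of the 4 tested members with intervals beyond a log2 value of 0.5, 3 were dim: the second Prosbeta6 probe set, Rpt3R and Rpt4R. The other was Rpt5, a bright one at 623 to 1052. The part of background signal in these intervals was not tested.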

Other observations

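A probe set outside the rule, 141501_at, has an annotation that lists 2 genes with symbols that start with Prosalpha, both among the 9 without a probe set of their own, and its signal cannot be given to either. It measured 1786, 1573 and 1660 in RasV12 discs and 1128, 1162 and 1066 in sSpi discs, without overlap. The log2 difference was 0.57 ± 0.09 (SE, n = 3), a fold of 1.49 (95% interval 1.29 to 1.72), and it passed with a limma adjusted p of 0.013. Its size lay between 0.53 and 0.62 under 15 alternatives, all chosen for it after seeing the data, with adjusted p from 0.0035 to 0.066. The call ended with the replicate block (0.066), without sSpi replicate 1 (0.055) and without sSpi replicate 3 (0.056). It is the 1 probe set with a proteasome symbol in its annotation that passed, and it was picked with its values known.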
